A study of Mus musculus with 10 samples.

Results

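Srrm3 and Srrm4 encode the neural members of the SR repetitive matrix family, and the splicing of their own transcripts is described here in 2 kinds of mouse cell. All events that a deposited splicing table assigns to either gene were taken, 80 of 661162 events in all: 54 of Srrm3 and 26 of Srrm4. To these were added the 5 exons of the genes in a table of neuronal microexons, which are very short exons. Polyadenylated RNA was sequenced from 10 samples. N2A cells, a mouse neuroblastoma line, were transfected at 40 nM with siRNAs that target Qk (siQk, n = 3) or with non-targeting siRNAs (siNT, n = 3) and were harvested after 72 h. Glutamatergic neurons were differentiated from embryonic stem cells and either stayed untreated (n = 2) or received 100 uM cycloheximide for 12 h at day 7 in culture (n = 2). The labels name biological replicates within each experiment and state no shared day or batch. All N2A samples come from 1 line and no genotype is changed in any group.

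SRRM4, also called nSR100, activates microexons in neurons. It binds UGC motifs just upstream of these exons and, through a conserved enhancer domain near its C terminus, helps early spliceosome factors to recognise them. SRRM3 carries a related domain and acts on many of the same exons. Qk, or Quaking, is an RNA-binding protein that binds ACUAAY-like elements and can activate or repress an exon according to where it binds. Cycloheximide stops translation and with it nonsense-mediated decay, the pathway that removes transcripts with a stop codon well upstream of their last exon junction. Isoforms that this pathway removes can therefore be seen in larger shares in treated cells.

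Both genes lie on chromosome 5 (mm10), Srrm3 on the plus strand and Srrm4 on the minus strand. The exons on which the results turn, and whose letters are in the GENCODE M21 transcripts, are shown 5′ to 3′ to let a reader see the reading frame. The first pair of lines holds the 16 nt exon of Srrm4 at chr5:116454673-116454688, spliced between exons 8 and 9 of the 13-exon transcript Srrm4-201. Capitals mark the inserted exon in the first line and the first in-frame stop codon in the second.
Srrm4 16 nt exon: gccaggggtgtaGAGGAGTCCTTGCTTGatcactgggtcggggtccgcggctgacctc
Srrm4 16 nt exon, stop codon: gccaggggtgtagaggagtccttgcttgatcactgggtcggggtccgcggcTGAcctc
The next pair holds the 20 nt exon of Srrm3 at chr5:135867127-135867146, spliced between exons 11 and 12 of the 15-exon transcript Srrm3-204, with the same use of capitals.
Srrm3 20 nt exon: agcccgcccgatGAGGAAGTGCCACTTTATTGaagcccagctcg
Srrm3 20 nt exon, stop codon: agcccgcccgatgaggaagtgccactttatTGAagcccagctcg

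Neither length is a multiple of 3, so each exon shifts the frame. Read from the start codon of Srrm4-201 with the 16 nt exon inserted, the frame ran for 268 codons and met TGA after 23 bases of exon 9, against 608 codons without it. That stop lay 729 nt upstream of the last exon junction, with 4 junctions after it. With the 20 nt exon inserted in Srrm3-204, the frame ran for 342 codons in place of 648, and the TGA was made of the last bases of the exon and the first base of exon 12. This stop lay 709 nt upstream of the last junction, with 3 junctions after it. GENCODE M21 holds the 16 nt exon in transcript Srrm4-205 and the 20 nt exon in Srrm3-201, both classed there as nonsense-mediated decay transcripts.

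A pair of in-frame exons serves as the contrast, the 27 nt exon 5 of Srrm4-201 at chr5:116472507-116472533 and the 30 nt exon 6 of Srrm3-204 at chr5:135852892-135852921. Both are coding exons of the main transcript.
Srrm4 27 nt exon: gtctttctccaagaaaaggagacacag
Srrm3 30 nt exon: caaaaagaggagactagagtcagaatgcag

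Inclusion is given as percent spliced in (PSI) as deposited, an estimate of how often the exon, intron or splice site of an event is used. It is not the plain share of the reads counted, so the read counts printed below do not always give it back. Reads over exon events totalled between 26595944 and 80481173 per N2A sample, and siQk 2 was the shallowest. Of the 80 events, 72 had at least 10 reads in each of the 6 N2A samples. In 28 of these the mean PSI was over 98 and in another 28 it was under 2, so 16 events were variable enough to be tested, 13 in Srrm3 and 3 in Srrm4. Calls required an adjusted p under 0.05 (limma, Benjamini-Hochberg within the event class) and group means at least 10 points of PSI apart. The N2A samples expressed neuronal markers, with a summed coverage of 1092 to 1104 CPM (counts per 1000000 exon-event reads of the sample) in siNT and 1212 to 1328 CPM in siQk over 7 genes. Summed astrocyte, microglia and pluripotency markers stayed under 0.22 CPM in every sample, with Aqp4, Slc1a3 and Pou5f1 at 0 throughout. Fibroblast markers summed to at most 1.72 CPM, with Lum at 0. Oligodendrocyte markers summed to at most 4.96 CPM, with Mog at 0. The listed markers Tubb3, Hand2, Olig2, Cx3cr1 and Sox2 had no exon events and are not in these sums. The neuron table holds no gene levels, so the identity of those cells was not checked here.

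Qk coverage, the check of the knockdown, was 90.8, 82.8 and 82.5 CPM in siNT 1 to 3 and 8.17, 12.3 and 13.0 CPM in siQk 1 to 3. It fell to 13.1% of control (log2 change -2.91, SE 0.16, limma adjusted p = 0.000483).

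The largest change in either gene was the near loss of a 79 nt exon of Srrm3 after Qk knockdown. This exon, MmuEX0044973 at chr5:135869720-135869798, lies in the last intron of the gene, 425 nt after exon 14 and 3281 nt before exon 15. GENCODE M21 holds no exon with these ends. Its PSI was 52.6, 72.5 and 72.9 in siNT 1 to 3 and 0.00, 4.98 and 6.53 in siQk 1 to 3. The groups are separated by a gap of 46.1 points, and siNT 1 is the lowest of the controls; in all genes, 6.64% of tested cassette exons had every siQk sample below every siNT sample. Mean PSI fell from 66.0 ± 11.6 (SD, n = 3) to 3.84 ± 3.41 (SD, n = 3), and the log2 ratio of reads with the exon to reads without it fell by 6.12 (SE 0.88, limma adjusted p = 0.0063).

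It was the only one of the 4 tested Srrm3 cassette exons to be called, against 1.18% of the 12930 cassette exons tested in all genes and 0.425% called lower. By the size of the fall it ranked 4 among those exons. The call was lost without siNT 2 (adjusted p = 0.0525, difference -58.9 points). In siQk 1 no read out of 93 supported the exon, which allows a share of up to 3.23%, counting error only.

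**Figure D1:**
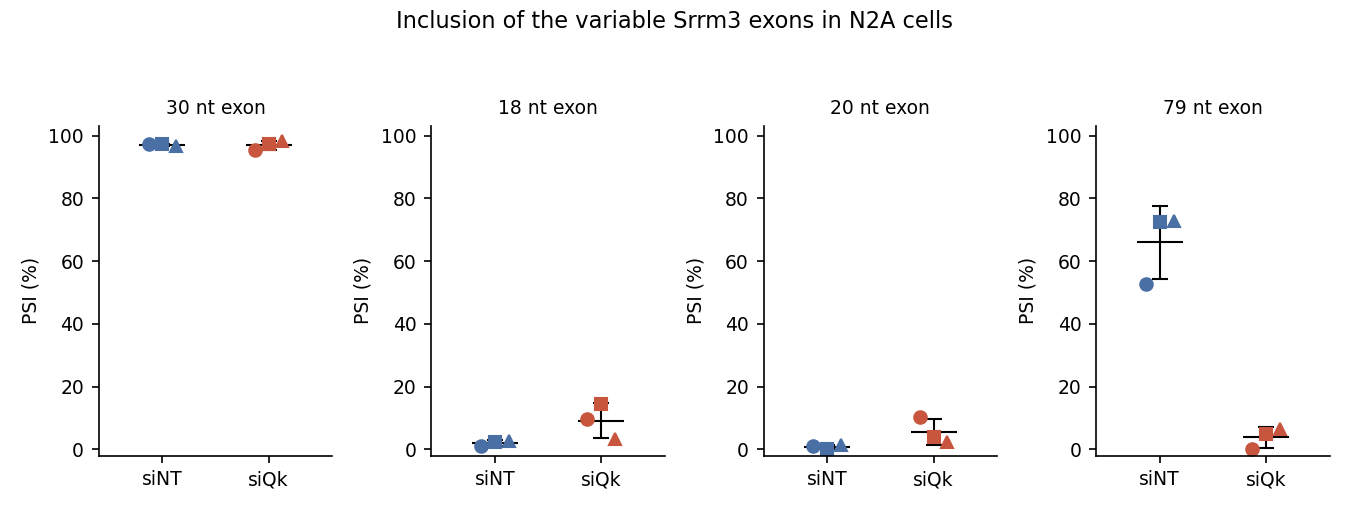
Percent spliced in (PSI, y axis) of the 4 tested Srrm3 exons, in gene order, in siNT and siQk samples; points are samples (circle, square and triangle for replicates 1 to 3), bars the mean ± SD. The 79 nt exon sits between 52.6 and 72.9 in siNT and between 0.00 and 6.53 in siQk, while the 30 nt exon stays above 95 in every sample.

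The reads behind this exon moved on all 3 of its junctions. The junction from exon 14 into the exon had 116, 46 and 138 reads in siNT 1 to 3 and 0, 4 and 14 in siQk 1 to 3. The junction from the exon to exon 15 had 99, 83 and 122 reads in siNT and 0, 3 and 4 in siQk. Reads that join exon 14 directly to exon 15 numbered 100, 25 and 50 in siNT and 93, 69 and 135 in siQk.

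Per 1000000 junction reads of the sample, the mean of the entry junction went from 2.39 ± 0.637 (SD, n = 3) to 0.158 ± 0.138 (SD, n = 3) and that of the exit junction from 2.59 ± 0.378 to 0.0795 ± 0.0834. The skipping junction went from 1.45 ± 0.907 to 3.42 ± 0.857, and its groups overlap, since siNT 1 (2.50) lies above siQk 3 (2.43). The skipping reads plus the mean of the inclusion reads, a measure of all transcripts spliced past this point, were 3.94 ± 1.08 on this scale in siNT and 3.54 ± 0.815 in siQk, a difference within the spread of the samples. The intron event of the same intron counts the skipping reads slightly differently (89 in place of 100 in siNT 1).

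**Figure D2:**
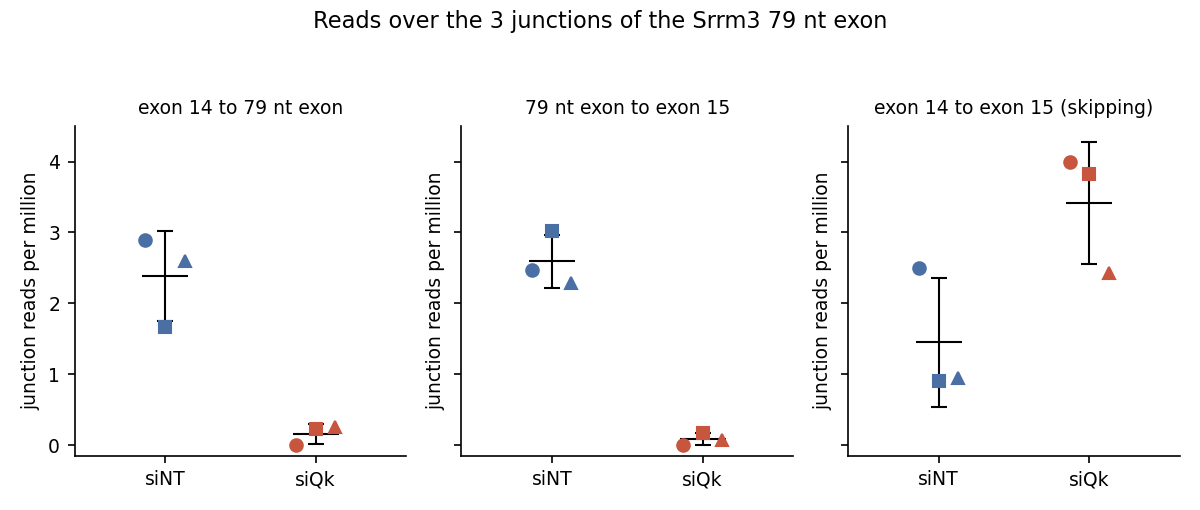
Junction reads per 1000000 junction reads of the sample (y axis) over the entry, exit and skipping junctions of the Srrm3 79 nt exon; points are samples (circle, square and triangle for replicates 1 to 3), bars the mean ± SD. Entry and exit reads are near 0 in siQk, and skipping reads are higher on average with overlapping groups.

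With 79 nt the exon adds 1 base beyond a whole number of codons. The ends it would be spliced between are shown for the frame, the last 30 bases of exon 14 (chr5:135869265-135869294) and the first 30 of exon 15 (chr5:135873080-135873109).
End of Srrm3 exon 14: cagtttcatggagccgagacgcatcaccag
Start of Srrm3 exon 15: tgcccgcaagcgtcccatcccctactaccg
Exon 15, the last exon, holds 229 coding bases of Srrm3-204, its stop codon included. In the frame that the 79 nt exon would leave, provided it holds no stop itself, exon 15 was open for 186 bases before a stop. The letters of the 79 nt exon were not analysed here.

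The last intron of Srrm3, 3785 nt at chr5:135869295-135873079, was also called, and it contains the 79 nt exon and shares reads with it. Its PSI compares reads that run from an exon into the intron with reads that join exon 14 to exon 15, and it was 7.77, 21.3 and 15.9 in siNT and 2.22, 4.35 and 3.59 in siQk. The groups do not overlap, and the share of all tested introns without overlap is not given here. The mean fell by 11.6 points, from 14.99 ± 6.81 (SD, n = 3) to 3.39 ± 1.08 (SD, n = 3; limma adjusted p = 0.0358). It was 1 of the 6 introns tested in both genes, where 0.113% of 17664 introns were called and 0.051% were called lower. The call was lost with limma on PSI (adjusted p = 0.857), with no filter on mean PSI (0.0539), without siNT 2 (0.674), without siNT 3 (0.184) and without any 1 siQk sample (0.0779 to 0.0962), and the intron was not called among introns with balanced junctions.

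This PSI is not a share of all transcripts, because transcripts spliced through the 79 nt exon are not in it. With the mean of the reads into and out of that exon added to the spliced reads, a value chosen after seeing the data, the retained share was 3.68%, 6.84% and 4.63% in siNT and 2.22%, 4.14% and 3.35% in siQk. The groups then overlap, since siQk 2 lies above siNT 1, with means of 5.05 ± 1.62 (SD, n = 3) and 3.24 ± 0.963 (SD, n = 3). The fall in intron PSI is thus no measurement apart from the loss of the exon. The intron reads also lay mostly at 1 end, with 1, 2 and 4 reads at the first end and 14, 11 and 13 at the other in siNT.

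The short exons of Srrm3 that lie in intron 11 were low in every sample. The 20 nt exon had a PSI of 1.07, 0.00 and 1.25 in siNT and 10.2, 4.03 and 2.44 in siQk, from 66 to 322 reads per sample, most of them skipping reads. Reads into and out of the exon numbered 1 and 7, 1 and 1, and 2 and 2 in siQk 1 to 3, so the values rest on few reads. The siQk values all lie above the siNT values, and siQk 1 is the highest. The mean was 0.773 ± 0.676 (SD, n = 3) in siNT and 5.55 ± 4.09 (SD, n = 3) in siQk, and the difference of 4.78 points did not pass the test (limma adjusted p = 0.297).

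An 18 nt exon of the same intron, MmuEX1024857 at chr5:135859282-135859299, had a PSI of 0.96, 2.41 and 2.78 in siNT and 9.63, 14.4 and 3.29 in siQk. Reads into and out of it numbered 2 and 2, 4 and 0, and 2 and 1 in siQk 1 to 3, so these values also rest on few reads. Here too the groups do not overlap, although siQk 3 lies close to the highest control. The difference of 7.07 points (2.05 ± 0.962 against 9.12 ± 5.59, SD, n = 3 each) did not pass the test (limma adjusted p = 0.441). In all genes, 7.95% of the cassette exons tested had every siQk sample above every siNT sample. The exact ends of this exon are not in GENCODE M21.

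The 10957 nt intron 11 that holds both short exons had a PSI of 11.2, 8.05 and 8.26 in siNT and 17.4, 22.7 and 10.9 in siQk, and its groups overlap by siNT 1 and siQk 3. Its difference of 7.81 points did not pass the test (limma adjusted p = 0.825). It shares reads with the exons inside it.

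The 30 nt exon of Srrm3 was included almost throughout. Its PSI was 97.3, 97.2 and 96.6 in siNT and 95.3, 97.4 and 98.1 in siQk, with overlapping groups and a difference of -0.12 points (limma adjusted p = 0.994). The other tested introns of Srrm3, of 79, 1270 and 525 nt, had mean PSI between 1.71 and 3.37 in both groups and differences of 0.54 to 0.87 points. A 13718 nt intron of Srrm4, the intron between exons 8 and 9, had a PSI of 2.07, 1.04 and 2.27 in siNT and 2.94, 6.17 and 0.98 in siQk. These groups overlap, and the 4 intron differences named in this paragraph each had a limma adjusted p of 1.00.

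No alternative splice site of either gene was called. The table holds 22 alternative 3′ sites and 6 alternative 5′ sites of these genes. Of these, 6 alternative 3′ sites and 0 alternative 5′ sites could be tested, and 0 were called by limma, where 0.101% of 3′ sites and 0.107% of 5′ sites in all genes were called. At an unadjusted p under 0.05 the count was also 0, as it was with limma on PSI. The largest difference was 0.63 points. The choice of acceptor of Srrm4 exon 11 gives an example: the site that adds 21 nt had a PSI of 97.3, 93.4 and 94.9 in siNT and 96.4, 95.4 and 93.4 in siQk. The pairs at the acceptors of Srrm3 exons 7 and 10 used the longer form, 27 and 66 nt longer, in at most 8.12% of transcripts. The sites of a pair are read from the same junctions and are not independent.

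Nearly all remaining exon events of both genes were constitutive in N2A cells. In Srrm4 all 9 cassette events, among them the 27 nt exon, had a PSI of 100 in every sample, from at least 47 reads. In Srrm3, 12 of 17 exons had a mean over 98, with 97.8 the lowest value in a sample, and an 88 nt exon had a mean under 2. The 16 nt exon of Srrm4 and the 8 nt exon of Srrm3 in the neuron table were not analysed here in N2A cells.

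Gene coverage, the CPM of all exon-event reads of a gene, is used as a stand-in for transcript level. Srrm4 coverage was 41.4, 33.5 and 44.3 CPM in siNT and 31.8, 28.2 and 25.6 CPM in siQk, and every siQk sample lies below every siNT sample. Its mean was 39.7 ± 5.60 (SD, n = 3) in siNT and 28.5 ± 3.15 (SD, n = 3) in siQk, 71.9% of control. This did not pass the test (log2 difference -0.47, SE 0.13, limma adjusted p = 0.0899), but it passed without siQk 1 (adjusted p = 0.0442) and with a replicate block (0.0393). It did not pass without any other single sample (limma adjusted p = 0.0814 to 0.315), or with no filter on low values (0.289). Of the 10851 genes tested, 4.21% were called changed in coverage and 1.45% were called lower, and in 10.3% every siQk sample lay below every siNT sample.

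Srrm3 coverage was 63.4, 44.8 and 55.5 CPM in siNT and 48.8, 48.4 and 42.0 CPM in siQk. The groups overlap, with siNT 2 below both siQk 1 and siQk 2. The log2 difference was -0.22 (SE 0.13, limma adjusted p = 0.397), and -0.18 without the event of the called Srrm3 exon (limma adjusted p = 0.519). It was -0.09 when only exon-exon junction reads of introns were summed. That sum counts the reads that skip the called exon, higher on average in siQk, but not the reads spliced through it. It is therefore no measure of level apart from the change in splicing. Among the general family members, Srrm1 and Srrm2, coactivators of splicing in all cells, the log2 differences were 0.12 and -0.18 (limma adjusted p = 0.563 and 0.313). In bulk RNA, fewer cells that express a gene and less of its RNA in each cell cannot be told apart.

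**Figure D3:**
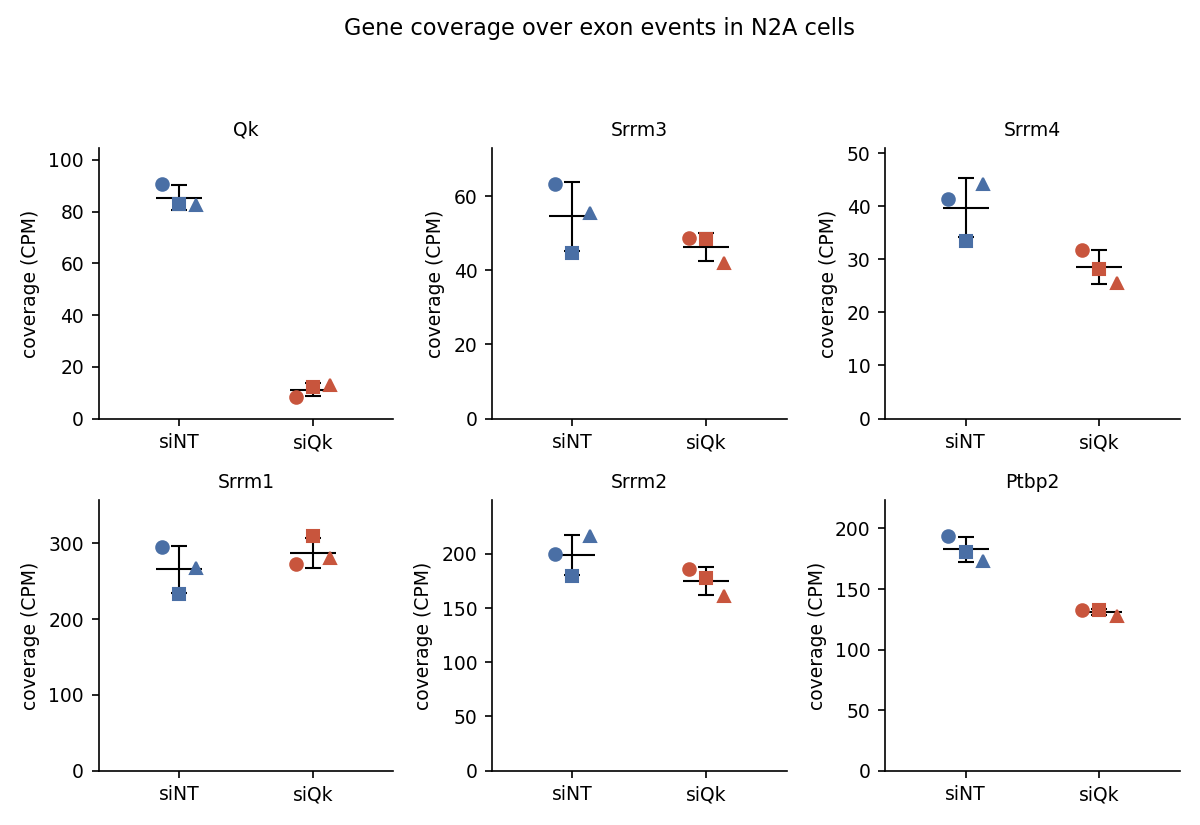
Gene coverage in CPM of exon-event reads (y axis, from 0, separate scale per gene) of Qk, the 4 SRRM genes and Ptbp2 in siNT and siQk; points are samples (circle, square and triangle for replicates 1 to 3), bars the mean ± SD. Qk falls to 13.1% of control, the Srrm4 groups do not overlap and the Srrm3 groups do.

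Junction by junction, siQk means were lower along all of Srrm4 and along part of Srrm3, which was described without a test. Levels are given per junction, as its reads per 1000000 junction reads of the sample, which do not depend on gene length. The median junction of Srrm3 had 3.13, 1.75 and 2.51 in siNT and 2.49, 2.58 and 2.18 in siQk, and that of Srrm4 had 2.97, 2.65 and 3.33 in siNT and 2.62, 2.22 and 1.95 in siQk. In siNT both stood below the median junctions of Qk (7.29 ± 0.455, SD, n = 3), Srrm2 (10.7 ± 2.16) and Srrm1 (19.5 ± 3.20). The levels of Srrm3 and Srrm4 themselves, 2.46 ± 0.695 and 2.98 ± 0.337 in siNT, do not differ beyond their spread.

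In Srrm4 the siQk mean was lower at all 12 junctions, with ratios of siQk to siNT from 0.664 to 0.957 and a median of 0.732. The groups did not overlap at 3 of them, those of introns 8, 9 and 10, against 8.12% of 99645 introns with such reads in all genes. The median ratio over those introns was 0.992, and 51.9% of them had a lower mean in siQk. Neighbouring junctions of a gene share transcripts and are not replicates.

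In Srrm3, 9 of the 12 junctions between the first and the last were lower in siQk, beside 51.9% of introns in all genes. Their ratios ran from 0.631 to 1.14 over the 12, with a median of 0.904. The junctions of introns 11, 12 and 13 had ratios of 0.631, 0.710 and 0.722, and the groups did not overlap at the first pair of these. The last junction, which skips the 79 nt exon, went the other way: it had 2.22, 0.873 and 0.846 in siNT and 3.78, 3.66 and 2.18 in siQk, a ratio of 2.44 with siNT 1 just above siQk 3. The first junction of Srrm3 had under 0.43 in every sample.

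**Figure D4:**
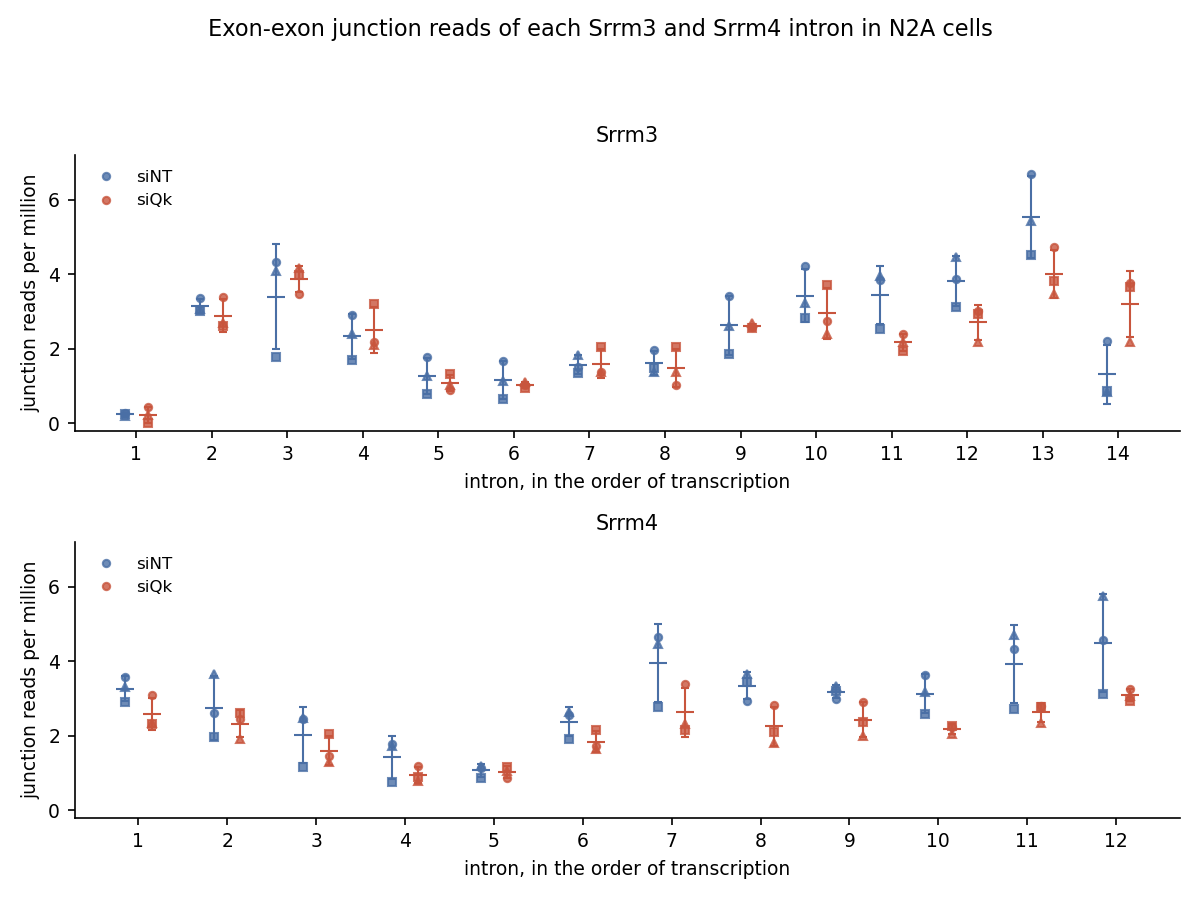
Exon-exon junction reads per 1000000 junction reads of the sample (y axis) for each intron of Srrm3 (14) and Srrm4 (12) in order of transcription (x axis); small points are samples (circle, square and triangle for replicates 1 to 3), bars the mean ± SD. The siQk mean is lower along Srrm4. In Srrm3 it is lower at 9 of the 12 junctions between the first and the last, with the lowest ratios at introns 11 to 13. At intron 14 of Srrm3 it is higher.

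Coverage of the partners and rivals of the SRRM proteins was compared in the same fit. Of 41 listed regulators of neural splicing, among them the SRRM4 partners Srsf11, Rnps1, U2af1 and Sf1, 36 could be tested. Their median log2 difference was -0.01, beside 0.02 for all genes. Qk, the target of the knockdown, and Ptbp2 were the 2 of these 36 called, both lower, beside 4.21% of all genes called and 1.45% called lower. Ptbp2, a repressor of neuronal exons, had 194, 181 and 173 CPM in siNT and 133, 133 and 128 in siQk (log2 change -0.48, SE 0.07, limma adjusted p = 0.0154), a call lost without siNT 2, siQk 2 or siQk 3, with no filter on low values and with 1 event per gene (adjusted p = 0.0597 to 0.0989).

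The genes whose coverage over the 6 samples was most like that of each member, among 9670 genes that averaged 100 reads or more, were Ubn2, Dzip1 and Rnf166 for Srrm3 and Foxp1, Wiz and Fbrs for Srrm4. Likeness is the root mean square difference of gene-centred log2 coverage, which was 0.049 to 0.054 for the first set and 0.068 to 0.076 for the second.

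Most exons called in genes known as SRRM targets rose after Qk knockdown, as did 97 of 152 cassette exons called in all genes. Of 116 tested cassette exons in 30 of 35 listed target genes, 10 were called higher and 3 lower, where 0.75% of all cassette exons were called higher and 0.425% lower. Their median difference was 0.73 points, beside 0.04 points over all cassette exons. Among the target exons of 3 to 27 nt, 4 of 37 (10.8%) were called, all higher, with a median difference of 5.48 points. Over all 410 microexons tested, 7.32% were called and the median difference was 2.40 points. The 13 called target exons of any length lie in 8 genes. The list names genes, not exons, and was chosen with earlier results of these data known. A link between SRRM targets and Qk was not tested.

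Clasp1, a microtubule plus-end protein, had 3 exons that rose, of 24, 48 and 108 nt. The 24 nt exon had a PSI of 6.44, 4.16 and 3.22 in siNT and 44.2, 34.3 and 30.6 in siQk (limma adjusted p = 0.000826). Bin1, a membrane-bending protein, had a 24 nt exon at 77.5, 74.5 and 66.3 in siNT and 88.2, 91.9 and 89.5 in siQk, as well as a 93 nt exon that rose by 32.0 points. In Ap1b1, a clathrin adaptor, a 9 nt exon rose by 23.6 points, and in Kif1b, a kinesin, one of 42 nt rose by 24.9 points.

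Trrap, a scaffold of histone acetyltransferase complexes, had exons of 21 and 54 nt that rose by 21.8 and 19.1 points. Dnm2, a dynamin, had a pair of 139 nt exons that moved in opposite directions, by 27.7 and -26.2 points. The other exons that fell were the 57 nt exon of the adhesion gene Nrcam, from 89.1 ± 1.87 to 18.1 ± 5.46 (SD, n = 3 each), and a 33 nt exon of the translation factor gene Eif4g3, by 10.9 points. The Nrcam exon did not reach 20 reads in every sample, and its call held in the 13 alternatives in which it could be tested. The calls of both Trrap exons were lost without any 1 sample (limma adjusted p = 0.0538 to 0.164), that of Ap1b1 without siNT 2, siNT 3, siQk 2 or siQk 3 (0.0534 to 0.204) and that of Eif4g3 without any 1 siNT sample or siQk 2 (0.103 to 0.132). With limma on PSI the 24 nt exon of Bin1 (adjusted p = 0.128), the exon of Ap1b1 (0.0960), the 21 nt exon of Trrap (0.0594) and the exon of Eif4g3 (0.0509) were not called.

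In the neurons, 1 of the 5 microexons of these genes differed between the conditions in the authors' deposited table: the 16 nt exon of Srrm4. Values there are combined over replicates, without a spread or depth, and the rule for a change was 10 or more points with a probability of 0.9 or more. The authors' deposited table gives the 16 nt exon a PSI of 7.26 in untreated neurons and 40.1 with cycloheximide, a rise of 32.9 points with a probability of 0.998. By that rule 9.4% of 2469 microexons changed, 2.23% upward and 7.17% downward. The Srrm4 exon ranked 21 by the size of the rise.

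The other 4 exons differed by at most 1.19 points in the authors' deposited table. The 27 nt exon of Srrm4 had a PSI of 98.7 untreated and 99.4 with cycloheximide (probability 0.644). The 30 nt exon of Srrm3 had 99.5 and 99.8 (probability 0.741). An 8 nt exon of Srrm3 at chr5:135818617-135818624, whose ends are not in GENCODE M21, had 0.640 and 0.188 (probability 0.771).

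The 20 nt exon of Srrm3, which like the 16 nt exon of Srrm4 brings an early stop, had 5.09 untreated and 3.90 with cycloheximide in the authors' deposited table (probability 0.646). The 2 exons with a stop thus had unlike values under the drug, and the difference between them was not tested. The 20, 27 and 30 nt exons are in both experiments: means of 0.773, 100 and 97.1 in siNT cells stand beside 5.09, 98.7 and 99.5 in untreated neurons. These come from separate tables with separate processing, and no comparison is made.

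**Figure D5:**
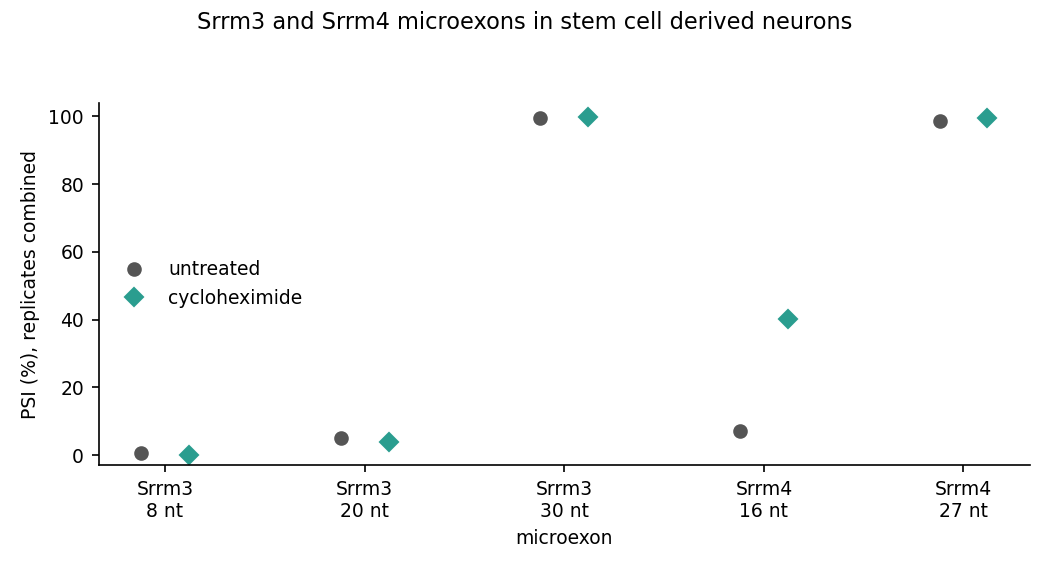
PSI in percent (y axis) of the 5 Srrm3 and Srrm4 microexons (x axis) in untreated (circles) and cycloheximide-treated (diamonds) neurons, replicates combined by the authors, so no error can be drawn. The 16 nt exon of Srrm4 goes from 7.26 to 40.1; the others differ by at most 1.19 points.

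Microexons of the listed SRRM target genes were lower with cycloheximide where they changed. The authors' deposited table has 69 microexons in 29 of these genes: 17 changed by the rule, all 17 lower with the drug, and the median difference was -1.98 points, beside -0.06 over all microexons. In all genes 232 of 2469 microexons (9.4%) changed by this rule, and 177 of the 232 were lower with the drug. The list was chosen with earlier results of these data known. The 21 nt exon of Trrap went from 71.4 to 24.7, the 12 nt exon of Ptprd, a synaptic receptor phosphatase, from 93.5 to 47.8, and the 12 nt exon of Enah, an actin regulator, from 28.4 to 4.04. Among the listed regulators, 11 microexons in 8 genes were in the authors' deposited table, and the only changed one beside that of Srrm4 was a 26 nt exon of Hnrnpc, from 82.5 to 32.0. In N2A cells the same Trrap exon (chr5:144810332-144810352) had 23.4 ± 5.85 in siNT and 45.2 ± 3.53 in siQk (SD, n = 3 each).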

How the data were processed

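The authors deposited, per the file headers, a PSI in percent for each event and N2A sample, and a quality cell in text form with inclusion and exclusion reads. For neurons the authors deposited PSI and probability as fractions, replicates combined, and an entropy score that was not used. The first PSI column was read as untreated, following the order of conditions in the name of the table. The build is mm10, per the submitters' processing notes. Aligner and quantifier are not given in the sources used here. A deposited list of 226 neural microexons, with PSI as a fraction, holds 0 in these genes.

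Log2 ratios of inclusion to exclusion reads, each plus 0.5, were compared with limma 3.58.1 in R 4.3.3 (robust, variance trend, two-sided), with at least 10 reads in each of 6 samples and a mean PSI from 2 to 98, over all events of a class. Reads of a gene's exon events were summed to CPM, in which a read can count more than once, and limma with a trend was run on log2(CPM + 0.5) for genes that averaged 20 reads or more. This scale understates changes of low genes. Benjamini-Hochberg adjustment was used throughout. The fits were tested on simulated data, and were repeated with other filters, offsets, weights and scaling, on PSI itself, with a replicate block and with each sample left out.

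Named in full are tested events and neuron rows of both genes. From the lists, Qk, the SRRM genes and called items are named, with further neuron exons picked after their values were seen. The members and lists were chosen with earlier results of these data known. The planned motif search beside the exons was not run. P-values measure the spread between the samples of 1 cell line. Exon letters come from GENCODE M21 transcripts. Software was pandas 2.3.3 and matplotlib 3.10.9 on Python 3.11.15, and data.table (version 1.17.8) in R.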

Additional observations from a re-analysis of the deposited data

How the results depend on the processing

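The number of changed cassette exons in Srrm3 and Srrm4 was 1, and 0 to 1 with single samples left out (0 without siNT 2). The number of changed introns was 1, and 0 to 1 with single samples left out; it was 0 with events of any mean PSI (no filter on mean PSI), 0 with limma on PSI, 0 among introns with balanced junctions and 0 with the replicate block. The Srrm4 coverage difference of -0.47 (log2) ranged from -0.58 to -0.38 with single samples left out, with limma adjusted p from 0.0442 to 0.315. With the replicate block it was -0.47 with a limma adjusted p of 0.0393. The number of regulators with changed coverage was 2, and 1 to 6 with single samples left out; it was 1 with no filter on low values, 1 with the top event over 27 nt per gene and 6 with the replicate block. The replicate numbers were not taken to pair the samples, because the labels state no shared batch. In coverage, the deviations of same-numbered samples correlated at 0.48, -0.14 and 0.48 for numbers 1 to 3. There siNT 2 and siNT 3 did not correlate best with their own number. In the log2 ratios of cassette exons the correlations were 0.139, 0.0193 and 0.116, and each siNT sample correlated best with its own number. No called difference changed sign in the alternatives run. Of the uncalled differences, 8 changed sign with single samples left out: the Srrm3 30 nt exon (-0.713 to 0.697 points), the 79 nt intron (-0.353 to 1.18), the shorter and longer acceptors of Srrm3 exon 7 (-0.945 to 1.09 and -1.09 to 0.945) and exon 10 (-2.16 to 1.90 and -1.90 to 2.16), and the first and second acceptors of Srrm4 exon 11 (-0.193 to 1.30 and -1.10 to 0.853). The depth behind the neuron values is unknown. A probability of at least 0.95 left the neuron count at 1. The last-intron share with reads through the 79 nt exon added, sums of exon-exon junction reads, and Srrm3 coverage without the 79 nt event, were alternatives chosen after seeing the data.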
